A study of Mus musculus with 8 samples.

Results

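A set of 10 genes of myeloid growth factor signalling was followed across microarrays of mouse leukaemia stem cells: the cytokine receptor genes Csf3r, Csf2ra, Csf2rb, Csf2rb2 and Il3ra, the receptor tyrosine kinase genes Kit, Flt3 and Csf1r, and the transcription factor genes Stat5a and Stat5b. They were chosen by name, and a transcript row was taken for each symbol of the platform annotation. A row carried the name of 9 of the 10 genes, 1 row each, among 19505 genes named on the array. No row carried the name Csf2rb2, so it is not analysed here. Of the 9 genes, 8 were bright enough to be tested among 9920 genes, and Flt3 was not.

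The cells were granulocyte-macrophage progenitors (GMPs), the myeloid progenitors in which leukaemia stem cells of this model reside, and they expressed MLL-AF9, a fusion oncogene of acute myeloid leukaemia. They were sorted as GFP-positive cells from bone marrow of mice that had received a transplant. The study compared 3 arrays of Pik3ca-/- cells (KO) with 5 arrays of wild-type cells (WT); all 8 carried MLL-AF9, and the WT cells are therefore leukaemic and not normal progenitors. Pik3ca encodes p110-alpha, a catalytic subunit of phosphoinositide 3-kinase (PI3K). Strain, age, the deleted part of the gene, the way it was deleted, and whether each array came from its own mouse are not stated in the labels, so all p-values refer to the spread of these arrays, which may be technical.

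As background, growth factor receptors tell myeloid progenitors to survive, divide and mature. Type I cytokine receptors have no kinase of their own and signal through bound JAK kinases, which phosphorylate STAT5, whereas Kit, Flt3 and Csf1r are kinases themselves. Both classes also recruit PI3K and the RAS pathway, and activated STAT5 switches on survival genes and its own feedback inhibitors. In GMPs the receptors for G-CSF, GM-CSF and interleukin-3 and the stem cell factor receptor Kit are in use, and Kit is a marker by which such progenitors are sorted.

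All values are deposited log2 signals of the array, so a difference of 1 is a 2-fold difference, and a gene was tested if it exceeded the median of all rows on at least 3 arrays. WT array 3 stood apart: across genes it correlated with the others at 0.921 on average, where the remaining 7 arrays were at 0.968 to 0.972. It held the highest of the 8 values in 2480 of the 9920 tested genes and the lowest in 3620, and results that rest on it are also given without it. The GMP markers Mpo, encoding myeloperoxidase, and Elane, encoding neutrophil elastase, were bright on every array, at 17.05 to 17.49 and 17.60 to 17.89. Not all GMP markers were: Cd34 was 5.63, 7.81 and 7.42 in KO and 7.24 to 10.94 in WT. Pik3ca itself read 8.73, 9.31 and 9.40 in KO and 9.48, 9.57, 8.41, 9.51 and 9.58 in WT arrays 1 to 5. WT array 3 was the lowest of the 8, and without it all KO arrays lay below all WT arrays. Without that array the groups did not overlap in 5.55% of tested genes. Since probes outside the deleted part would not report the loss, Pik3ca did not check the labels. In sorted cells measured in bulk, fewer cells of a type and less RNA per cell cannot be told apart.

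None of the 8 tested genes passed the test between KO and WT. In limma's moderated test over 9920 genes the adjusted p was 0.998 for 7 of them and 0.999 for Stat5a, and 0 of 9920 genes (0%) passed at 0.05. At an unadjusted p under 0.05 there were 282 of the 9920 genes, or 2.84%, and 0 of these 8. The 5 genes with a difference below 0 were Il3ra, Kit, Csf2ra, Csf1r and Stat5b, and the 3 above 0 were Csf3r, Csf2rb and Stat5a. Over all 9920 genes tested, 5553 were above 0 and 4367 below, which is the background for the counts of every list given here. The median over the 8 was -0.06, beside 0.04 over all genes tested. Without WT array 3 these medians were -0.13 and 0.0002. KO was separate from WT, array by array, in 1 of the 8 genes, Il3ra, where 3.09% of all tested genes had groups that did not overlap. A share of so few genes cannot be set against that percentage.

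**Figure D1:**
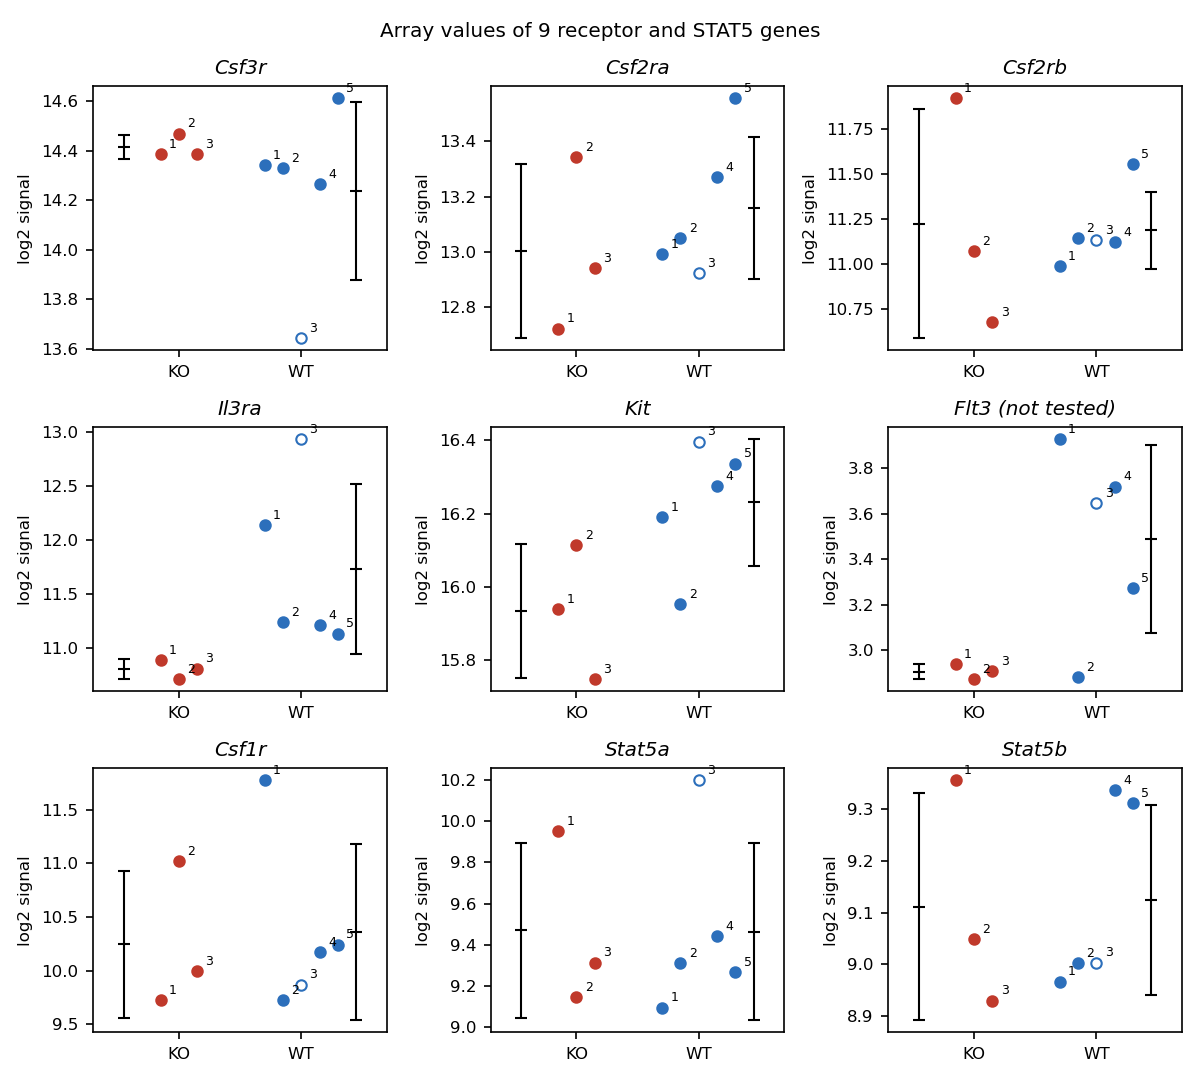
Log2 signal of the 9 named genes on each array, with KO arrays in red and WT arrays in blue, the array number beside each point, WT array 3 as an open circle, and the mean and SD of each group as black bars; each panel has its own vertical scale. Il3ra is the gene in which the 3 KO arrays, at 10.71 to 10.89, sit below all 5 WT arrays, at 11.13 to 12.94.

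Il3ra encodes the alpha chain of the interleukin-3 receptor, the subunit that gives the receptor its specificity. It read 10.89, 10.71 and 10.81 in KO arrays 1 to 3 and 12.14, 11.24, 12.94, 11.21 and 11.13 in WT arrays 1 to 5. The KO arrays were the 3 lowest of the 8 and close together, while the WT arrays were spread over more than 1 log2 unit, with WT arrays 3 and 1 far above the other WT arrays. The gap between the highest KO and the lowest WT array was 0.24. The means were 10.80 ± 0.09 (SD, n = 3) for the KO arrays and 11.73 ± 0.79 (SD, n = 5) for the WT arrays, a difference of -0.93 with a standard error of 0.42. As a ratio, KO was at 0.526 of WT, with a 95% interval of 0.272 to 1.01 that is not adjusted for the number of genes. The unadjusted p in limma was 0.0542, the adjusted p 0.998, and the exact two-sided permutation p of the difference in means was 0.0893 over 56 splits, whose smallest possible p is 0.0179. The difference in means thus stayed within the spread of the arrays although no array overlapped.

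Much of the size of this difference lay in WT arrays 1 and 3. Without WT array 3 the Il3ra difference was -0.63 with a standard error of 0.26, an unadjusted limma p of 0.0444, an adjusted p of 0.989 and an exact permutation p of 0.0571 over 35 splits, of which 0.0286 is the smallest possible. In that comparison 464 genes, or 4.68% of those tested, had an unadjusted p under 0.05, and Il3ra was the only 1 of the 8 genes among them. The groups were also separate in 5.55% of tested genes, with Il3ra again the only 1 of the 8. Without WT arrays 1 and 3 together, a comparison chosen after seeing the data, it was -0.39 with an adjusted limma p of 0.996.

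Kit, the receptor for stem cell factor, read 15.94, 16.12 and 15.75 in KO arrays 1 to 3 and 16.19, 15.95, 16.40, 16.28 and 16.34 in WT arrays 1 to 5. The 4 lowest arrays were the 3 KO arrays and WT array 2, so that the groups overlapped by that WT array alone. The means of 15.93 ± 0.18 (SD, n = 3) for the KO arrays and 16.23 ± 0.17 (SD, n = 5) for the WT arrays differed by -0.30 with a standard error of 0.20, an adjusted limma p of 0.998 and an exact permutation p of 0.0714. The 95% interval ran from -0.74 to 0.15, so a fall to 0.599 of the WT level and a rise to 1.11 of it both lay inside. Kit was among the brightest rows, above 98.9% to 99.5% of the transcript rows of each array.

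Flt3, the receptor for FLT3 ligand, is used by multipotent and dendritic progenitors. It was below the median row on all 8 arrays, at 2.94, 2.87 and 2.91 in KO and 3.93, 2.88, 3.65, 3.72 and 3.27 in WT, which placed it between the 1.25 and the 24.9 percentile of the transcript rows. With a row this dim no order of the arrays is read and no ratio is given. The exact permutation p of the difference in means was 0.0893. In a limma fit without the filter on dim rows the unadjusted p was 0.0365 and the adjusted p 0.999. In that fit 592 of 19505 genes had an unadjusted p under 0.05 in either direction, and 1.4% were lower in KO at that level.

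The promoters of Il3ra and Kit, the tested genes in which the KO arrays were all among the 4 lowest of the 8, are shown for the sequence around their starts. Each is the 250 bases before the RefSeq start on build GRCm38.p6, written 5′ to 3′ on the gene's own strand: Il3ra at chr14:14346245-14346494 (plus strand) and Kit at chr5:75574737-75574986 (plus strand). Capitals mark exact matches, on either strand, to 4 motifs of myeloid and cytokine-activated factors: GAGGAA for PU.1, TTGCNNAA for C/EBP, TGTGGT for RUNX and TTCNNNGAA for STAT, the last being the GAS element that STAT5 binds.
Il3ra: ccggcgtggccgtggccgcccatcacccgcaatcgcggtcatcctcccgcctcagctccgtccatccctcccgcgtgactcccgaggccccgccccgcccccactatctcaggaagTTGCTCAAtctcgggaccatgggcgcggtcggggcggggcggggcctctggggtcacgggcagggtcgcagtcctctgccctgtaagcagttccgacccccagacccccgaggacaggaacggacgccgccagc
Kit: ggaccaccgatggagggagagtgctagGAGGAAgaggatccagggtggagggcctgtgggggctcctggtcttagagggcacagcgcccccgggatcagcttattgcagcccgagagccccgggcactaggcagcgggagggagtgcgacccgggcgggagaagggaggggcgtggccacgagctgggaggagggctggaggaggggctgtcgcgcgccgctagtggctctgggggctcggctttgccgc
Il3ra had 1 C/EBP match beginning at position -134 from the start, a motif that 10.8% of 32851 promoter windows held. Kit had 1 PU.1 match beginning at position -223, where 28.3% of windows held that motif. The GAS letters, present in 8.30% of windows, were found in neither window, and neither were the RUNX letters, present in 16.8%. No motif was shared by both. These are matches of letters in a 300-base window, 250 before and 50 after the start, and not binding sites.

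**Figure D2:**
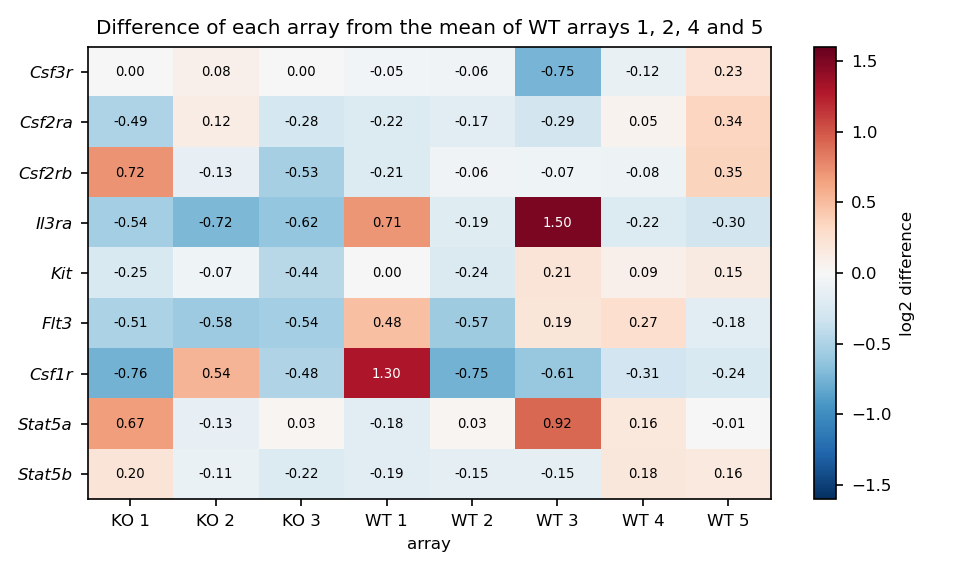
Log2 difference of each array (columns) from the mean of WT arrays 1, 2, 4 and 5, for the 9 named genes (rows), with red above and blue below that mean. In Il3ra the KO arrays are at -0.54, -0.72 and -0.62, WT array 1 is at 0.71 and WT array 3 at 1.50.

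Csf3r, the receptor for G-CSF that drives neutrophil production, was bright and steady. It read 14.39, 14.47 and 14.39 in KO and 14.34, 14.33, 13.64, 14.27 and 14.61 in WT. WT array 3 was the lowest, and the other 7 arrays lay between 14.27 and 14.61 with both genotypes mixed. The KO mean of 14.41 ± 0.05 (SD, n = 3) was 0.18 above the WT mean of 14.24 ± 0.36 (SD, n = 5), with a standard error of 0.24, an adjusted limma p of 0.998 and an exact permutation p of 0.536. Without WT array 3 the difference was 0.03, with a 95% interval of -0.34 to 0.39. The SD of the KO arrays was small, and 2.84% of tested genes had a smaller one.

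Csf2ra encodes the alpha chain of the GM-CSF receptor, and Csf2rb the beta chain that the receptors for GM-CSF, interleukin-3 and interleukin-5 share. Csf2ra was 12.72, 13.34 and 12.94 in KO and 12.99, 13.05, 12.92, 13.27 and 13.56 in WT, with KO array 1 lowest and WT array 5 highest. Its groups overlapped, with means of 13.002 ± 0.314 (SD, n = 3) for KO and 13.16 ± 0.26 (SD, n = 5) for WT, which differed by -0.16 with an adjusted limma p of 0.998 and an exact permutation p of 0.500. Leaving out KO array 1 gave -0.02, and leaving out KO array 2 gave -0.33. The value became -0.06 when WT array 5 was dropped. Csf2rb was 11.92, 11.07 and 10.68 in KO and 10.99, 11.14, 11.13, 11.12 and 11.56 in WT. Here the KO arrays held both the highest and the lowest of the 8 values, and their SD of 0.64 (n = 3) was larger than that of 84.8% of tested genes, beside an SD of 0.21 (n = 5) in WT. The Csf2rb difference of 0.04, with an exact permutation p of 0.946, became -0.31 when KO array 1 was left out and 0.31 when KO array 3 was, and it was -0.01 with quantile normalization or median centring. Mice carry another, near-identical beta chain gene, Csf2rb2, which serves interleukin-3 alone and lies next to Csf2rb among protein-coding genes. Whether the Csf2rb row also takes up Csf2rb2 transcripts was not tested.

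The alpha and beta chains of the interleukin-3 receptor therefore differed in pattern. On KO array 1, Il3ra was 10.89 and among the 3 lowest, and Csf2rb was 11.92 and the highest of the 8. On WT array 3, Il3ra was the highest of the 8, whereas Csf2rb, at 11.13, was in the middle of the WT arrays. No test of a difference between the 2 genes was made, since the levels of different rows are not on a common scale.

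Csf1r encodes the receptor for M-CSF, the growth factor of monocytes and macrophages. It read 9.72, 11.02 and 9.998 in KO and 11.78, 9.73, 9.87, 10.17 and 10.24 in WT. WT array 1 was the highest and KO array 2 the next, and the other 6 arrays lay between 9.72 and 10.24 with both genotypes mixed. The means of 10.25 ± 0.68 (SD, n = 3) and 10.36 ± 0.82 (SD, n = 5) differed by -0.11, with a 95% interval of -1.22 to 1.00, an adjusted limma p of 0.998 and an exact permutation p of 0.857. The difference was 0.24 without WT array 1 and -0.50 without KO array 2. The SD of Csf1r among the 5 WT arrays was larger than that of 83.8% of tested genes. Without WT array 3 its SD of 0.89 (n = 4) was larger than that of 96.8%. Leaving that array out lowered the median WT SD of tested genes from 0.449 to 0.283.

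Markers of other myeloid cells moved with some of these values. Of 12 named monocyte and macrophage markers other than Csf1r, 11 were bright enough to test and Klf4 was below the median row on all arrays. Their mean was highest on WT array 1, at 8.65, and within KO it was highest on array 2, at 8.24, the arrays on which Csf1r was high, but WT array 5, at 8.30, exceeded that KO array although its Csf1r was 10.24. The summed level of the list did not follow Csf1r: its log2 was 13.3 on WT array 1, below 13.5 on KO array 2, 13.6 on WT array 4 and 13.7 on WT array 5. It ranged from 12.9 to 13.5 in KO and from 12.6 to 13.7 in WT. Megakaryocyte and platelet markers averaged 9.98 on WT array 1 against 5.88 to 6.92 on the other 7 arrays, with a summed level of 14.1 there and of 9.17 to 10.5 in the other arrays. WT array 1 was the highest of the 8 in Csf1r and the next highest in Il3ra. Their part in the values of these genes was not tested.

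Dendritic cell markers, chosen because Flt3 and Il3ra are both used by that lineage, averaged 5.79 to 5.97 in KO and 6.01 to 6.28 in WT over 9 named genes, without overlap. Of these 9, Zbtb46, Batf3, Siglech, Itgax and Xcr1 were below the median row on all arrays, and the summed level overlapped, at 12.28 to 12.96 in KO and 12.81 to 14.28 in WT. Mast cell, basophil and eosinophil markers averaged 6.80 on WT array 3 and 6.93 on WT array 4 against 5.97 to 6.26 elsewhere, with a summed level of 10.9 to 11.4 in KO and 10.7 to 13.8 in WT, and Fcer1a, Epx, Cma1 and Tpsb2 were below the median row on all arrays. The averages of that list did not overlap either, at 5.97 to 6.08 in KO and 6.09 to 6.93 in WT, so this was not particular to dendritic markers. How often averages of other gene lists separate was not tested. Il3ra was high on WT array 3 but not on WT array 4. Cd34, a marker of stem and progenitor cells, was highest on the arrays where Il3ra was highest, at 10.94 on WT array 3 and 9.49 on WT array 1, and lay at 5.63, 7.81 and 7.42 in KO and 7.24, 9.08 and 8.01 in WT arrays 2, 4 and 5. Cd34 was chosen after its values were seen. Kit, which is also on the GMP list, was likewise highest on WT array 3, with the 3 KO arrays among its 4 lowest. Over all 8 arrays other markers of these lists went the other way. Of the 4 tested stem and multipotent markers, Cd34 was the 1 below 0 and 3 were above 0. Of the 12 GMP markers, 8 were above 0 and 4, Cd34 and Kit among them, were below. This rested in part on WT array 3. Without it Mecom was at -0.12, Meis1 at -0.18, Mllt3 at 0.28 and Cd34 at -1.50. The median of the GMP list was 0.06 over 8 arrays and -0.01 without WT array 3. On WT array 3 Meis1, at 12.73, and Mecom, at 9.35, both stem cell transcription factor genes, were the lowest of the 8 arrays, as was the summed level of the stem list, at 13.22 against 14.04 to 14.71 elsewhere. The part of these markers in the Il3ra and Flt3 values was not tested.

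Stat5a and Stat5b are neighbouring genes whose products are the closely related transcription factors that the cytokine receptors activate. Stat5a read 9.95, 9.15 and 9.31 in KO and 9.10, 9.31, 10.20, 9.44 and 9.27 in WT. WT array 3 and KO array 1 were the highest, and the other 6 arrays lay between 9.10 and 9.44 with both genotypes mixed. The means were 9.47 ± 0.42 (SD, n = 3) and 9.46 ± 0.43 (SD, n = 5), and the difference of 0.01, with an exact permutation p of 0.982, was -0.06 with quantile normalization, -0.04 with median centring and 0.19 without WT array 3. Its 95% interval without that array ran from -0.32 to 0.71.

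Stat5b was the least variable of the 8 tested genes over all arrays, at 9.36, 9.05 and 8.93 in KO and 8.97, 9.002, 9.003, 9.34 and 9.31 in WT. Its whole range over the 8 arrays was 0.43, with KO array 1 highest and KO array 3 lowest. The means of 9.11 ± 0.22 (SD, n = 3) and 9.12 ± 0.18 (SD, n = 5) differed by -0.01, with a 95% interval of -0.47 to 0.45 and an exact permutation p of 0.893. Differences as large as KO at 0.722 or 1.36 of WT are therefore still inside the interval for Stat5b. These are levels of the transcripts, and phosphorylated STAT5 was not measured.

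**Figure D3:**
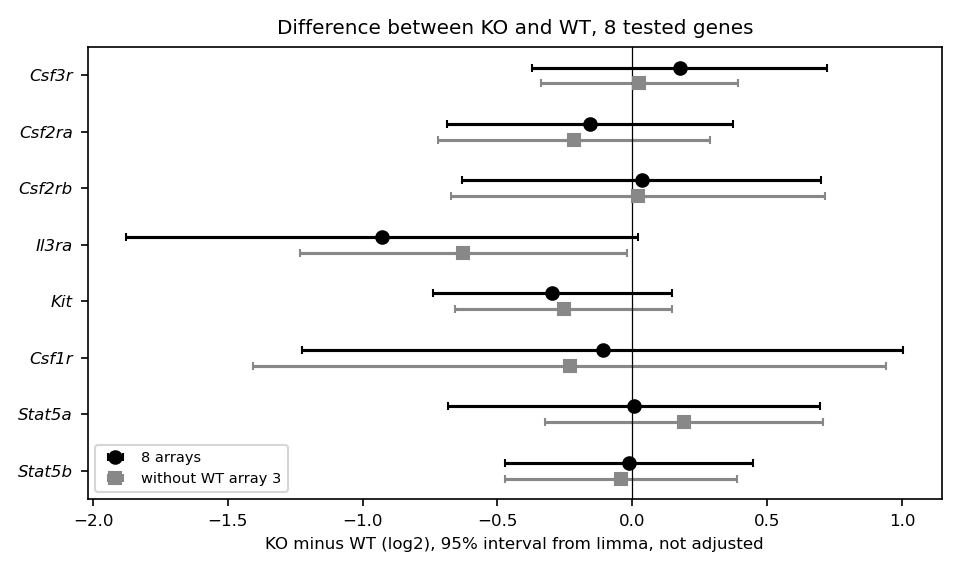
KO minus WT on the log2 scale for the 8 tested genes, with 95% intervals from limma that are not adjusted for the number of genes, over all 8 arrays (black circles) and without WT array 3 (grey squares). With 8 arrays every interval includes 0, and without WT array 3 that of Il3ra, at -1.23 to -0.02, does not.

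WT array 3 was the highest of the 8 arrays in 3 of the 8 tested genes, Il3ra, Kit and Stat5a, and the lowest in 1, Csf3r. The KO arrays differed among themselves as well. KO array 3 was the lowest of all in Csf2rb, Kit and Stat5b, and KO array 1 was the lowest in Csf2ra and Csf1r and the highest in Csf2rb and Stat5b. Within an array, by the share of transcript rows that a gene exceeded, Csf3r lay between the 94.5 and 96.9 percentile, Csf2ra between 90.8 and 93.9, Csf2rb between 81.3 and 87.3, Il3ra between 81.0 and 92.2, Csf1r between 76.5 and 86.4, Stat5a between 72.7 and 80.5 and Stat5b between 72.1 and 74.7. These ranks describe rows with different probes and are not an order of abundance between genes.

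The genes whose values over the arrays were most like those of Il3ra were Mapk8, encoding the kinase JNK1, Ambra1, an autophagy regulator, and Cpt1a, which brings fatty acids into mitochondria. Their Pearson r with Il3ra was 0.986, 0.974 and 0.960 over 8 arrays and 0.976, 0.981 and 0.965 over the 7 without WT array 3, and they differed between KO and WT by -0.38, -0.45 and -0.68. For Csf1r they were Klf11, Slc11a1, a metal transporter gene of macrophages, and Mrpl39, with r of 0.946, 0.948 and 0.930 over 8 arrays. For Stat5a they were Ndufb9, Ninl and Slc7a6os, with r of 0.980, 0.979 and 0.939, and for Csf2rb Arf3, Has2 and Scrib, with 0.949, 0.945 and 0.942. Genes were ranked among 9920 by the lower of the r over 8 and over 7 arrays, and all genes of an array share its RNA and scan, so they are given as a description with no test. Csf3r, Csf2ra, Kit and Stat5b ranged over less than 1 log2 unit and were not searched.

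The ligands of these receptors were mostly dim in the sorted cells. Of 11 ligand genes, 10 were named and 2 were tested, with 0 passing. Csf1, encoding M-CSF, was 7.17, 8.58 and 6.20 in KO and 7.24, 8.15, 9.96, 8.36 and 7.56 in WT, a difference of -0.94 not larger than the spread of the arrays (exact permutation p of 0.339), and it was -0.51 without WT array 3, which held the highest value. Flt3l, encoding FLT3 ligand, differed by -0.23. The genes for GM-CSF, G-CSF, interleukin-3 and stem cell factor, Csf2, Csf3, Il3 and Kitl, were below the median row on all arrays.

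Among other receptors that can activate STAT5, 3 of 10 named genes were tested and 0 passed, with a median difference of 0.16 that was -0.02 without WT array 3. Il4ra, the interleukin-4 receptor alpha chain, differed by 0.16, Crlf2, the TSLP receptor, by 0.16 and Il2ra by -0.16. The first 2 of these were at -0.02 and -0.03 without WT array 3, and Il2ra was at 0.03. Il5ra, which would pair with Csf2rb in eosinophils, and Epor, the erythropoietin receptor, were below the median row on all arrays.

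Of the JAK kinases and the other STAT genes, 7 of 7 named genes were tested and 0 passed, 4 above 0 and 3 below, with a median of 0.06 that was -0.21 without WT array 3. Jak2, the kinase that the receptors for GM-CSF, interleukin-3 and erythropoietin use, was 11.54, 11.23 and 11.10 in KO and 11.25, 11.33, 9.91, 11.24 and 11.66 in WT. WT array 3 was the lowest by over 1 log2 unit, and the difference of 0.21 was -0.08 without it. Tyk2 differed by -0.20, Stat6 by 0.15 and Stat4 by -0.57, and without WT array 3 Stat6 was at 0.01 and Stat4 at -1.11.

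Adaptors and kinases that act at the receptors had 16 of 17 named genes tested, 12 above 0, 4 below and 0 passing, with a median of 0.12 that was -0.05 without WT array 3. Over all 9920 genes tested, 5553 were above 0. Crk, an adaptor gene, was 6.9998, 6.76 and 7.21 in KO and 6.29, 6.42, 6.18, 6.80 and 6.50 in WT, with 1 WT array inside the KO range. Its difference of 0.55 had an unadjusted limma p of 0.0309 and an adjusted p of 0.998. Gab2, the scaffold that links these receptors to PI3K, differed by 0.21, and by 0.12 without WT array 3. Sos2, an exchange factor for RAS, differed by 0.25, and Syk, a tyrosine kinase, by 0.60, and by -0.07 without WT array 3, on which it read 10.20 against 13.27 to 13.77 in the other WT arrays.

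Negative regulators of the receptors were split evenly, with 14 of 21 named genes tested, 7 above 0, 7 below and 0 passing, and a median of -0.09 that was -0.17 without WT array 3. Cbl and Cblb, ubiquitin ligases that remove activated receptors, differed by -0.25 and -0.49. Sla, encoding an adaptor that promotes receptor turnover, was 13.74, 13.43 and 13.50 in KO and 13.41, 13.36, 13.31, 13.32 and 13.32 in WT. All its KO values were above all WT values, where 3.09% of all tested genes had groups that did not overlap. Its difference of 0.21 had an exact permutation p of 0.0179, the smallest that 56 splits can give, and an adjusted limma p of 0.998. Spred2, an inhibitor of RAS signalling, differed by 0.30, and by 0.19 without WT array 3.

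STAT5 target genes had 18 of 23 named genes tested, 7 above 0, 11 below and 0 passing, with a median of -0.06 that was 0.02 without WT array 3. Bcl2, encoding the anti-apoptotic protein, had the smallest p of the list, at 7.42, 8.04 and 8.37 in KO against 9.10 to 10.03 in WT. Its difference of -1.54 had an unadjusted limma p of 0.000547 and an adjusted p of 0.998. The exact permutation p was 0.0179, and 2.84% of tested genes had an unadjusted limma p under 0.05. Dusp5, a phosphatase gene, differed by -0.60, Osm, encoding the cytokine oncostatin M, by 0.40 and Ccnd3, encoding cyclin D3, by 0.28, and Dusp5 and Ccnd3 were at -0.30 and 0.09 without WT array 3. The feedback genes that report STAT5 activity most directly were too dim to test. Cish was 4.20, 5.14 and 4.83 in KO and 4.22, 4.83, 6.92, 5.31 and 5.48 in WT, and Socs2 was 5.66, 5.38 and 5.06 in KO and 4.95, 4.82, 4.80, 4.63 and 5.33 in WT. Each exceeded the median row on 2 arrays, and Socs1 and Socs3 on 0.

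Transcription factors that act on these receptor genes had 13 of 15 named genes tested, 9 above 0, 4 below and 0 passing, with a median of 0.03 that was -0.03 without WT array 3. Irf8, a factor of monocytes and dendritic cells, was 7.23, 8.71 and 8.58 in KO and between 8.90 and 9.43 in WT, a difference of -0.97. The groups did not overlap, as in 3.09% of all tested genes. The exact permutation p was 0.0179 and the adjusted limma p 0.998. Gata2 differed by -0.87, Runx1 by -0.28 and Fli1 by 0.37, and without WT array 3 these were -0.52, -0.54 and 0.05. In all 7 lists together, 0 genes passed over all genes tested.

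**Figure D4:**
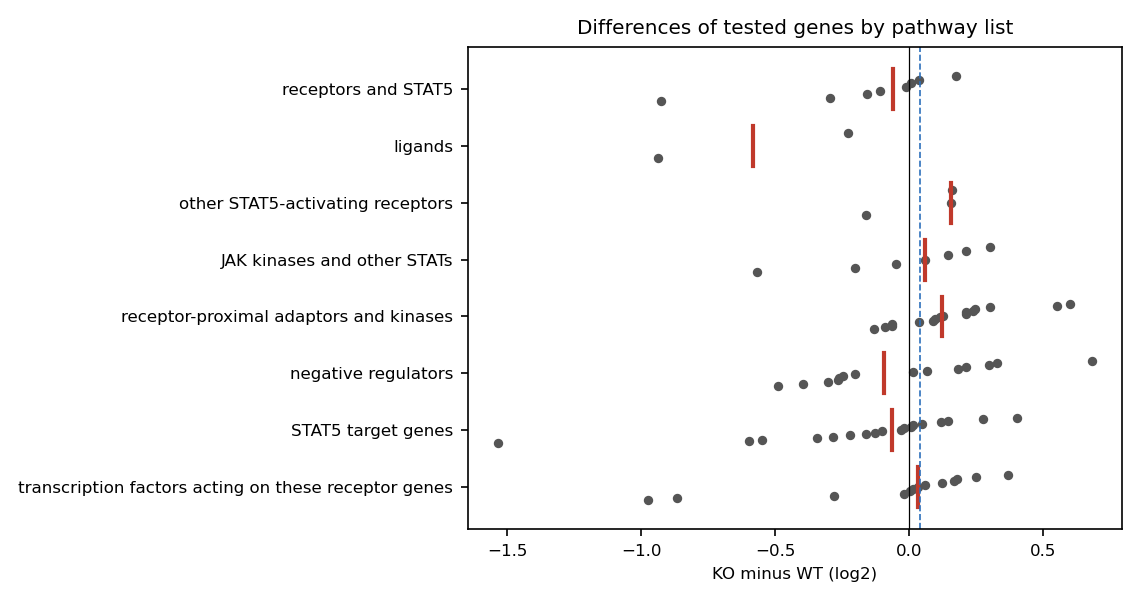
KO minus WT on the log2 scale for each tested gene (grey points) of the receptor and STAT5 set and of 7 lists of the same pathway, with the median of each as a red bar and the median of all genes tested, 0.04, as a dashed blue line. The points of the lists overlap, and the farthest point from 0, at -1.54, is Bcl2.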

How the data were processed

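RNA of sorted cells was extracted, labelled with biotin and hybridised, per the labels' protocols. The authors' deposited file gives log2 signals of 28846 rows on 8 arrays. The log base was read from the values, 1.89 to 18.6, and how background and arrays were adjusted is not given in the sources used here. By the submitters' text this was an Affymetrix transcriptome array of mouse, while the annotation table, whose identifiers match the rows, may be of another one. It gave 1 symbol to 19572 of 22206 transcript rows, several to 0 and none to 2634, and all 19572 gene identifiers were in RefSeq GRCm38.p6.

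Each symbol was represented by its brightest row on average. The log2 values, used as the authors deposited them, entered limma 3.58.1 in R 4.3.3 (lmFit, then eBayes; two-sided) to compare KO with WT, with Benjamini-Hochberg adjustment over 9920 genes and 0.05 as threshold. Exact permutation tests of the difference in means were run for the 9 named genes and for the genes named from the lists. The latter were picked by small unadjusted limma p, so their exact p is only a description. The Welch statistic with exact permutation was run over all 9920 genes. The script was tested on simulated data. Promoter windows, from RefSeq, were found for 8 of the 10 genes. A gene named from a list has one of its 4 smallest unadjusted p, and for each of the 10 genes with a range over 1 log2 unit, the 3 genes most like it were ranked by the lower of the r over 8 and over 7 arrays (Flt3, too dim, is not given). The genes and lists were chosen with earlier results of these data known. The closest arrays differed by a root mean square of 0.574, so none was a copy of another. That value does not show whether arrays shared RNA or a mouse. The alternatives were filters, quantile normalization, median centring, a floor, variance models, weights for arrays, a block for the replicate number, other rows and leaving out arrays. Protein sequences were not used here. Figures were drawn with matplotlib 3.10.9.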

Additional observations from a re-analysis of the deposited data

Results flagged for a closer look

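For 9 genes, each WT array was set against the other 4 by how far the extreme array lay from its neighbour, as a part of the whole range of the 5 values. An extreme array of that kind is met by chance in about 1 of 20 groups. There were 2 such values. Csf1r on WT array 1 was 11.8, against 10.2 on the next WT array, a distance of 0.749 of the range. Csf2rb on WT array 5 was 11.6, against 11.1 on the next, a distance of 0.728 of the range.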

How the results depend on the processing

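The count of genes passing between KO and WT was 0 under all 20 alternatives. The Welch statistic with exact permutation has a smallest possible p of 0.0179. Genes could therefore pass in it only if a large share of all tested genes had a p under 0.05. Csf3r stayed above 0 and Il3ra and Kit below 0 in all 20, with Il3ra at -1.08 to -0.63 when 1 array was left out, -1.30 with the replicate block and -0.39 without WT arrays 1 and 3, chosen after seeing the data. The limma adjusted p of Il3ra ran from 0.936 to 0.9999. With the Welch statistic in an exact permutation test, Il3ra had an unadjusted p of 0.0179, the smallest possible. In that test 341 of 9920 genes had an unadjusted p under 0.05. Differences near 0 changed sign. With 1 array left out, Csf2ra ran from -0.33 to -0.02, Csf2rb ran from -0.31 to 0.31, Csf1r from -0.50 to 0.24, Stat5a from -0.23 to 0.19, Stat5b from -0.13 to 0.08, and the median of other STAT5-activating receptors from -0.20 to 0.22. Csf2rb was -0.01 with quantile normalization and with median centring and -0.05 without WT arrays 1 and 3. Without those arrays Csf1r was 0.20 and the median of other STAT5-activating receptors -0.04. Stat5a was -0.06 with quantile normalization and -0.04 with median centring. With the replicate block, fitted over numbers 1 to 3, Csf2ra was 0.01, Stat5a -0.07 and Stat5b 0.12. The causes were not tested. The labels do not say whether the numbers pair the arrays. Deviations of same-numbered arrays correlated at 0.02, -0.02 and 0.14 across genes, and those of differently numbered arrays at -0.12 to 0.14. With so few arrays these values cannot decide whether arrays were paired. The block called 0 genes, as did the fit without it. The number of arrays limits precision, with a median standard error of 0.311.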
